A study of Mus musculus with 2 samples.

Results

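The 9 genes described here encode basic helix-loop-helix (bHLH) transcription factors that direct cells towards muscle, mesoderm or nerve: Myod1, Myf5 and Myog for skeletal muscle, Hand1, Hand2 and Twist1 for heart, limb and other mesenchyme, and Neurog1, Neurog2 and Olig2 for neurons and oligodendrocytes. CpG methylation in these genes was measured in mouse embryonic fibroblasts (MEFs) by bisulfite sequencing of a reduced representation of the genome (RRBS). Restriction enzymes select part of the genome, bisulfite converts unmethylated cytosine, and the share of reads that keep a cytosine gives the methylation level of that CpG. A member locus was the gene body with 3 kb on either side, in the mm9 (NCBIM37) build. The 9 loci held 632 of the 1790826 measured CpGs. The series has 2 libraries, 1 from Dnmt1+/+ MEFs and 1 from Dnmt1-/- MEFs. Dnmt1 encodes the main methyltransferase that copies CpG methylation after replication. The Dnmt1-/- cells are homozygous for a hypomorphic Dnmt1 allele rather than lacking the gene altogether, and both lines are also homozygous null for trp53, so the Dnmt1+/+ cells are not wild type at every locus. With 1 library per genotype and no replicates, every difference below is between libraries, and every interval covers counting error only. CpGs on the same reads are not independent of each other, so intervals over several CpGs are too narrow.

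A bHLH factor binds DNA through its basic region as a dimer, usually with a widely expressed E protein such as Tcf3 (E2A) or Tcf12, at short sequences called E boxes. Tissue-restricted members switch on the genes of 1 lineage, and Id and Hes or Hey proteins oppose them. Myod1 and Myf5 commit cells to skeletal muscle and Myog acts at terminal differentiation. Forced expression of Myod1 in fibroblasts is known to turn them into muscle cells. Many genes of this kind lie in CpG-dense sequence that stays free of methylation in most tissues, whereas CpG-poor promoters are more often methylated where the gene is silent.

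Among the 9 loci, Myf5, Myog and Hand1 were the most methylated. At CpGs outside the 2 sequences described below, Myf5 averaged 84.3% and Myog 80.4% in Dnmt1+/+, and both were lower in Dnmt1-/-, at 54.0% and 23.3%. Myod1, the third muscle gene, was at 12.7% and 6.14%. The nerve factors were at 12.9% or less in Dnmt1+/+ and at 2.85% or less in Dnmt1-/-. Downstream of Hand1 and Twist1, groups of CpGs were more methylated in Dnmt1-/- than in Dnmt1+/+. Downstream of Myod1, Myf5, Myog and Neurog2 no CpG outside those sequences was measured, so these genes could not be compared in this respect.

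The contrast between Myod1 and the other muscle genes is visible in a stretch of 59 coding bases in their first exons, which encodes part of the DNA-binding basic region. This stretch was chosen after its values were seen, because it holds the 5 Myf5 CpGs within 1 kb of the start that are counted below. Capitals mark the CpGs that were measured outside CCGG and TCGA. Each sequence is written along the coding strand, from chr7:53632378-53632436 (Myod1, plus strand), chr10:106922672-106922730 (Myf5, minus strand) and chr1:136186884-136186942 (Myog, plus strand) of NCBIM37.
Myod1: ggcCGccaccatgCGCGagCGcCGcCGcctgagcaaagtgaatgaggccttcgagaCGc
Myf5: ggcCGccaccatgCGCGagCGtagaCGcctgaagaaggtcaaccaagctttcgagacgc
Myog: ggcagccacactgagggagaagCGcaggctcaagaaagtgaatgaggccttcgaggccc
The Myod1 sequence matches Myf5 at 48 of 59 bases and has 8 CpGs, and the Myog sequence matches it at 38 of 59 and has only 2. The 5 Myf5 CpGs averaged 98.6% in Dnmt1+/+ (95% Wilson interval on 70 pooled calls 92.3 to 99.7%) and 77.3% in Dnmt1-/- (66.7 to 85.3% on 75 calls). The 7 Myod1 CpGs averaged 6.49% and 1.24%, with intervals on the pooled calls of 2.11 to 11% and 0.398 to 5.13%. The 1 Myog CpG was at 91.4% in Dnmt1+/+ and 51.6% in Dnmt1-/-. At these CpGs in Dnmt1+/+, the stretch was almost fully methylated in Myf5 and almost unmethylated in Myod1. A TCGA CpG in the Myod1 stretch, of the kind that averaged higher over the table (below), was at 68.8% of 48 calls in Dnmt1+/+ and 58.5% in Dnmt1-/-.

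Twist1 shows both ends of the range within 1 locus. In the coding stretch at chr12:34642926-34643041 (plus strand), 20 CpGs averaged 0.462% in Dnmt1+/+ and 0.762% in Dnmt1-/-. Downstream of the gene, at chr12:34647473-34647596, 5 CpGs averaged 14.5% and 71.0%. Both stretches were chosen after their values were seen, to set the unmethylated gene beside the CpGs that were higher in Dnmt1-/-.
Twist1 first exon: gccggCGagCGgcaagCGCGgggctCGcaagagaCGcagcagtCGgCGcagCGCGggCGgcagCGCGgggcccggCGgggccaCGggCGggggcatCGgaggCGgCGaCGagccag
Twist1 downstream: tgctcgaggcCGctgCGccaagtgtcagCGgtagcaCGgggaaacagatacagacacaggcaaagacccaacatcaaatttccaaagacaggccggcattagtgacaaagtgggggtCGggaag
The first 4 capitalised CpGs of the downstream stretch are those called higher in Dnmt1-/-. The last one, towards the 3′ end, was not. In Hand1 the corresponding stretch at chr11:57641420-57641660, written along the minus strand on which the gene lies, holds 20 measured CpGs outside CCGG and TCGA, of which 15 were called higher.
Hand1 downstream: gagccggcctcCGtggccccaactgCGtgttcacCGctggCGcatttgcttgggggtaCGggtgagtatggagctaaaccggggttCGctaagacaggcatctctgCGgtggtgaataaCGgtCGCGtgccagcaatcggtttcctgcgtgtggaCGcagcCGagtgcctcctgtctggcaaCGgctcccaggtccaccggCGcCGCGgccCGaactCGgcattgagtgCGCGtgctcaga
The Hand1 stretch averaged 13.0% in Dnmt1+/+ and 46.9% in Dnmt1-/-, with intervals on the pooled calls of 11.6 to 16.9% (683 calls) and 45.4 to 52.1% (848 calls). It too was chosen after its values were seen.

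The whole table gives the scale for these values. Depth per CpG had a median of 29 calls in Dnmt1+/+ and 30 in Dnmt1-/-, and no CpG had fewer than 10 in either library. A CpG with 0 methylated calls at a depth of 10 allows up to 30% methylation, as the limit for 3 calls. CpGs in CCGG or TCGA, which MspI and TaqI recognise, averaged 82.8% in Dnmt1+/+ and 57.1% in Dnmt1-/- over the table, well above the 45% and 15.1% of the other CpGs. In the 9 loci, 167 CpGs lay in these sequences and averaged 62.2% and 57.1%. Even in Twist1 the 24 such CpGs averaged 56.5% and 54.9%, beside 9.12% and 8.38% at the 78 others. Values below are therefore from the 465 member CpGs outside CCGG and TCGA, unless stated otherwise. No RNA was measured in this table, so the cell type could not be checked by expression. Promoter methylation cannot check the label either, because low values are common among promoters. Over 12837 protein-coding promoters with at least 5 CpGs outside CCGG and TCGA, the median was 2.66% in Dnmt1+/+ and 1.21% in Dnmt1-/-. The fibroblast genes Fn1 and Vim (44 and 32 such CpGs within 1 kb of the start) were at 2.87% or less in both libraries. Col1a2 (10 CpGs) was at 30.6% in Dnmt1+/+ and 7.60% in Dnmt1-/-. No conclusion on the cell type is drawn from these values. The other listed fibroblast genes, Col1a1, Thy1 and Pdgfrb, had fewer than 5.

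**Figure D1:**
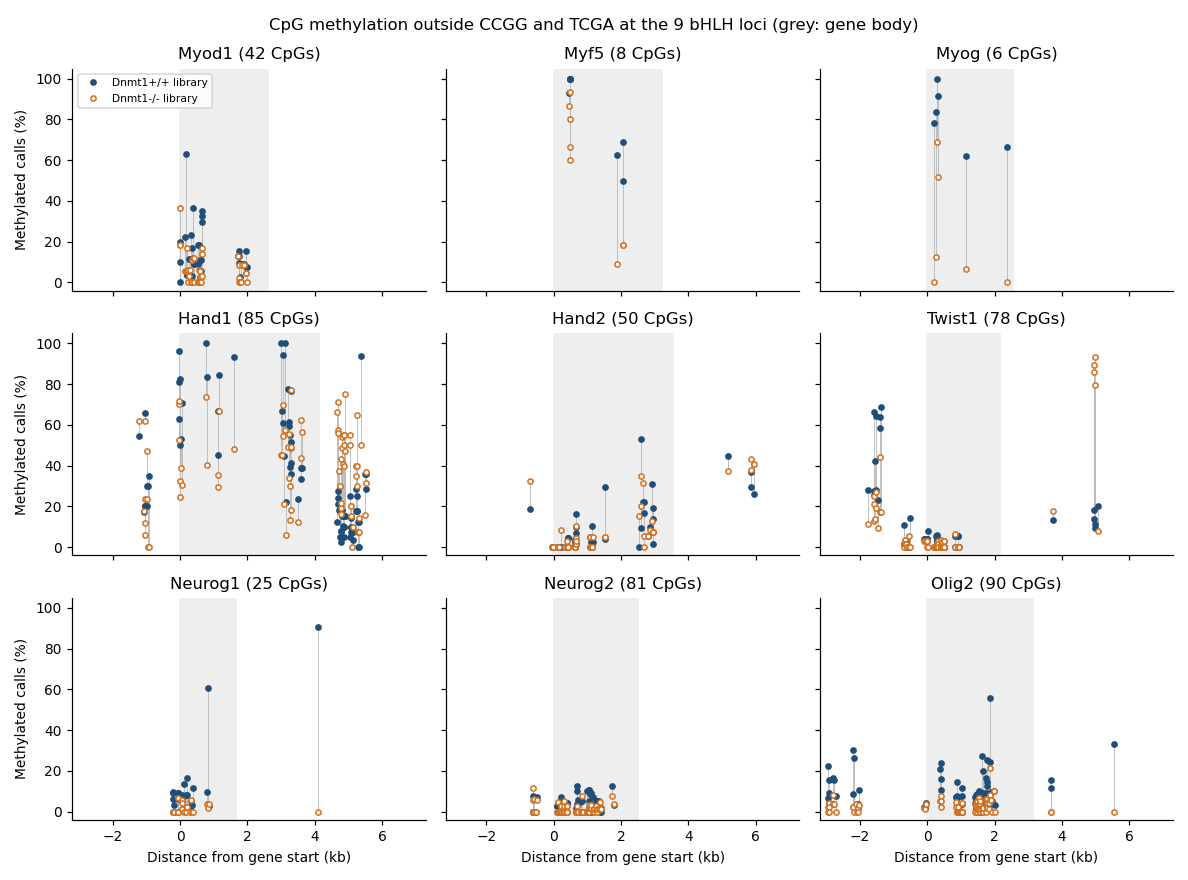
Methylation in percent of each CpG outside CCGG and TCGA in the 9 loci against distance from the gene start in kb, with filled points for the Dnmt1+/+ library, open points for the Dnmt1-/- library, a line joining both values of a CpG, and the gene body shaded grey. Myf5 and Myog start high and end lower, Neurog2 stays at 12.7% or less, and of the 22 CpGs called higher 17 lie downstream of Hand1 and 4 downstream of Twist1.

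Myod1 lies at chr7:53631844-53634462 on the plus strand (ENSMUSG00000009471.3). Its 42 CpGs ranged from 0% to 63.0% in Dnmt1+/+ (median 9.35%) and from 0% to 36.4% in Dnmt1-/- (median 4.76%). The means of 12.7% and 6.14% differed by -6.60 ± 3.19 points (Dnmt1-/- minus Dnmt1+/+, with the 95% counting error, as for every ± below). Each CpG was put to a two-sided Fisher's exact test of its methylated against its unmethylated calls in both libraries. P-values were adjusted by Benjamini and Hochberg's method over all 1790826 CpGs of the table, and 0.05 was the threshold. By this test 6 of the 42 were lower in Dnmt1-/- and 0 were higher, whereas of all CpGs outside CCGG and TCGA in the table, 44.2% were called lower and 0.635% higher. The highest value was at a CpG in the 5′ UTR, 164 bases from the start, which was at 63.0% of 27 calls in Dnmt1+/+ and 5.71% of 35 in Dnmt1-/- (Fisher's exact test, adjusted p = 1.26e-05). The coding sequence, with 34 CpGs, was at 11.5% and 4.83%.

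Myf5 lies at chr10:106919964-106923190 on the minus strand (ENSMUSG00000000435.1). Only 12 of the 130 CpGs in its locus were measured, 9.23%, the smallest share of any member, and 8 of them lay outside CCGG and TCGA. All 8 were in the gene itself. Their means of 84.3% and 54.0% differed by -30.2 ± 10.2 points. The 5 first-exon CpGs, at 92.9% to 100% in Dnmt1+/+, were at 60% to 93.3% in Dnmt1-/-, so that the ranges just overlapped. The 3 CpGs further along the gene, 1 in an intron and 2 in coding sequence, were at 50% to 68.8% in Dnmt1+/+ and at 9.09% to 18.2% in Dnmt1-/-. The test called 3 of the 8 lower and 0 higher, at a depth of 11 to 16 calls.

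Myog lies at chr1:136186581-136189124 on the plus strand (ENSMUSG00000026459.4). Its 6 CpGs, 5 in coding sequence and 1 in the 3′ UTR, averaged 80.4% in Dnmt1+/+ and 23.3% in Dnmt1-/-. The difference of -57.1 ± 8.18 points was the largest of the 9 loci, and all 6 CpGs were called lower. From the start onwards they were at 78.4%, 83.8%, 100%, 91.4%, 61.9% and 66.7% in Dnmt1+/+. In Dnmt1-/- they were at 0%, 12.5%, 68.8%, 51.6%, 6.67% and 0%. The 2 CpGs that kept most methylation, 287 and 325 bases from the start, were neighbours in the first exon. The 9 Myog CpGs in CCGG or TCGA were at 88.1% in Dnmt1+/+ and 54.5% in Dnmt1-/-.

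**Figure D2:**
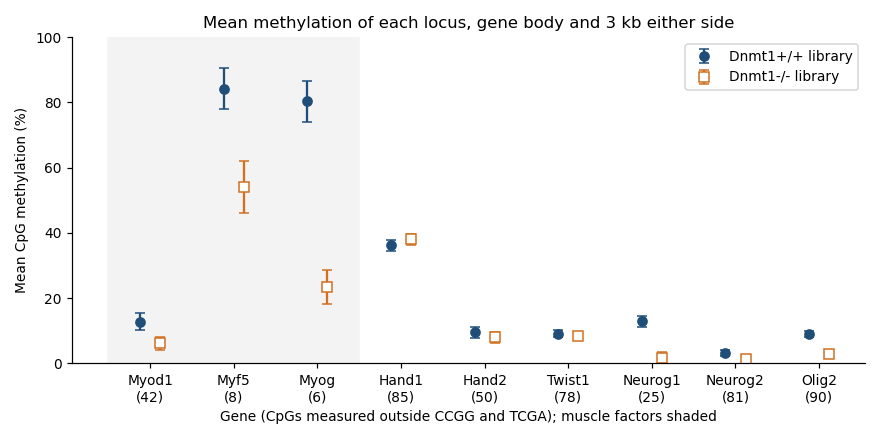
Mean methylation in percent of each locus in the Dnmt1+/+ library (filled circles) and the Dnmt1-/- library (open squares) over CpGs outside CCGG and TCGA, with bars for the 95% counting error and the number of CpGs under each gene. Myog drops from 80.4% to 23.3%, Hand1 is at 36.2% and 38.0%, and the nerve factors are low in both libraries.

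The mesodermal factors had more varied profiles. Hand1, needed for heart and extraembryonic development, lies at chr11:57642207-57646320 on the minus strand (ENSMUSG00000037335.7) and has a second annotated start 671 bases inside the first. Over its 85 CpGs the Dnmt1+/+ mean was 36.2% and the Dnmt1-/- mean 38.0%. They differed by +1.78 ± 2.42 points, an interval that includes 0. The difference was -2.04 points with calls pooled, -8.78 as a mean of 500 bp tile means and +5.87 at a depth of at least 20. This mean hides opposite differences. The test called 19 Hand1 CpGs lower and 17 higher. The lower ones were spread from upstream of the start to the 3′ UTR, with 1 more beyond the gene, and all 17 higher ones were downstream of the gene. Neighbours among the higher ones often had equal depths, such as 39 calls in Dnmt1+/+ and 37 in Dnmt1-/-. They may rest on the same molecules and do not count as 17 separate measurements. The 6 CpGs of the 5′ UTR were at 73.2% in Dnmt1+/+ and 40.1% in Dnmt1-/-, the 6 coding ones at 66.1% and 40.7%, and the 6 intronic ones at 76.7% and 47.2%. The 12 CpGs of the 3′ UTR were at 46.2% and 41.7%, with 3 called lower. The 42 CpGs of the downstream flank were at 16.1% and 36%, a difference of +20 ± 3.61 points.

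In tiles of 500 bp with at least 5 CpGs, Hand1 had 1 tile lower and 1 higher by 25 points or more. The lower tile, chr11:57646001-57646500, spans the gene start, and its 7 CpGs were at 70.9% and 45.9%. Its difference of -25.0 points only just reached the limit. The higher tile, chr11:57641501-57642000, lies downstream, and its 11 CpGs were at 13.6% and 42.9%. The next tile outwards, with 26 CpGs, was just under the limit at 12.3% and 34.3%, and 9 of its CpGs were called higher. Over the 30 tiles of the 9 loci, 2 were lower and 1 was higher, whereas 38.7% of all 48670 tiles in the table were lower and 0.397% were higher. The CpG 4890 bases from the Hand1 start had the largest rise in this gene, from 15% to 75% of 20 calls in each library (Fisher's exact test, adjusted p = 0.00116). Further out, 5375 bases from the start, 1 CpG was called lower, from 93.8% to 50%. The rise was thus bounded on its outer side by CpGs that did not share it.

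**Figure D3:**
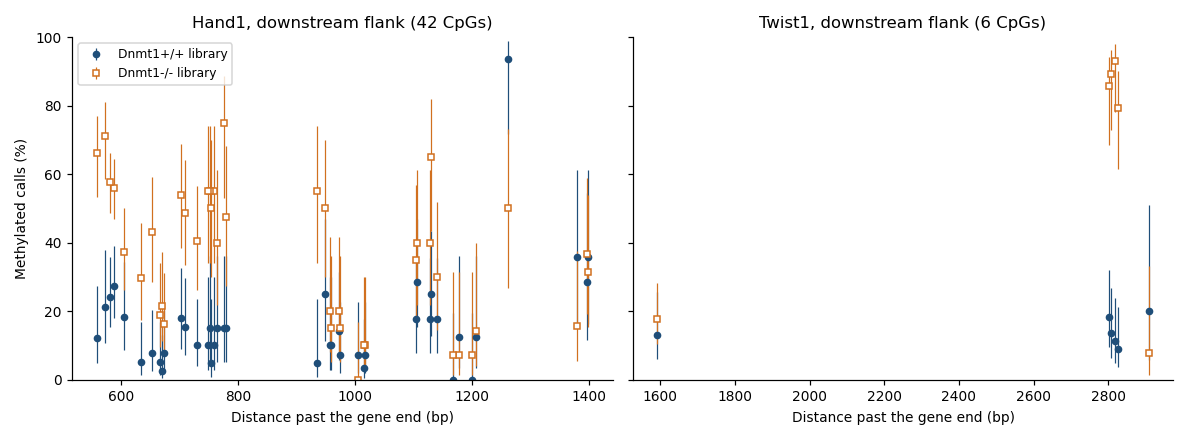
Methylation in percent of each CpG in the downstream flanks of Hand1 (42 CpGs) and Twist1 (6 CpGs) against the distance past the gene end in bp, with 95% Wilson intervals as bars, filled circles for Dnmt1+/+ and open squares for Dnmt1-/-. In Hand1 the Dnmt1-/- values are higher over most of the inner part of the flank, and in Twist1 a group of 4 CpGs goes from 9.09-18.2% to 79.3-93.1%.

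Twist1, a regulator of mesenchyme that is normally expressed in fibroblasts, lies at chr12:34642536-34644682 on the plus strand (ENSMUSG00000035799.5). The means over its 78 CpGs, 9.12% and 8.38%, differed by -0.736 ± 1.27 points, and the sign turned to +7.19 points as a mean of 500 bp tile means. The 26 coding CpGs were at 1.19% and 0.889%, and the 19 of the 5′ UTR at 2.60% and 0.776%. The upstream flank, with 26 CpGs, was at 21.0% and 9.35%, and 9 of these were called lower. They were mostly in a group at positions -1774 to -1392 from the start, and 1 tile there, chr12:34641001-34641500, was lower by 27.0 points (5 CpGs at 48.5% and 21.5%). The CpG with the highest Dnmt1+/+ value in that group, at -1392, was at 69.0% of 116 calls and 17.3% of 104 calls (Fisher's exact test, adjusted p = 1.67e-13). The CpG at -1408 had 58 and 52 calls. The calls at -1392 may therefore not all be independent, and this p-value may be too small.

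Downstream of Twist1 the order was reversed. The 6 CpGs of that flank averaged 14.2% in Dnmt1+/+ and 62.1% in Dnmt1-/-. Of these, 4 neighbouring CpGs were called higher. At 4947 bases from the start methylation was 18.2% in Dnmt1+/+ and 85.7% in Dnmt1-/-. At 4952 bases it was 13.6% and 89.3%, at 4965 bases 11.4% and 93.1%, and at 4973 bases 9.09% and 79.3% (Fisher's exact test, adjusted p between 1.73e-11 and 1.67e-07). The depth was 44 calls at each of them in Dnmt1+/+ and 28 or 29 in Dnmt1-/-, so the 4 CpGs may rest on the same molecules and do not count as 4 separate measurements. At 5054 bases from the start a CpG was at 20% of 10 calls and 7.69% of 13 calls, and at 3738 bases another was at 13.0% and 17.6%; neither was called. The CCGG or TCGA CpG at the inner edge of the group was at 72.7% and 67.9%.

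Hand2, a heart, limb and sympathetic neuron factor, lies at chr8:59799780-59803314 on the plus strand (ENSMUSG00000038193.3). The means over its 50 CpGs, 9.46% and 7.95%, differed by -1.51 ± 2.33 points. Methylation was low at the start, with 2.83% and 1.57% at 20 CpGs of the 5′ UTR, and higher towards the end, with 19.6% and 14.6% at 8 intronic CpGs. The 4 CpGs of the downstream flank were at 34.3% and 39.7%, none of them called, and a CCGG or TCGA CpG there was called higher, at 44.4% and 75.7% (Fisher's exact test, adjusted p = 0.0417). The test called 1 Hand2 CpG lower, at 31.1% and 12.7%, and 1 higher, at 1.38% and 7.27%, both in the 3′ UTR.

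The nerve factors, like Hand2 and Twist1, had low mean methylation in both libraries. Neurog2 (chr3:127336054-127338549, plus strand, ENSMUSG00000027967.7), which drives neuronal commitment in the cortex and spinal cord, averaged 3.03% in Dnmt1+/+ and 1.38% in Dnmt1-/- over 81 CpGs, and the highest single value in Dnmt1+/+ was 12.7%. The difference was -1.65 ± 1.31 points, with 2 CpGs called lower, both in coding sequence. With a flank of 5 kb the Neurog2 difference was -3.52 points. Olig2 (chr16:91225795-91228922, plus strand, ENSMUSG00000039830.8), which specifies motor neurons and oligodendrocytes, averaged 8.86% and 2.85% over 90 CpGs, a difference of -6.01 ± 1.14 points, or -10.3 as a mean of 500 bp tile means. It had 10 CpGs called lower, 4 of them upstream, and 0 higher. The most methylated, in the 3′ UTR at 1861 bases from the start, was at 55.7% of 185 calls and 21.5% of 144 calls (Fisher's exact test, adjusted p = 4.07e-09).

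Neurog1 (chr13:56351866-56353524, minus strand, ENSMUSG00000048904.4), which specifies sensory neurons, averaged 12.9% and 1.56% over 25 CpGs, a difference of -11.3 ± 2.51 points. As a share of its Dnmt1+/+ level, 12.2% was left in Dnmt1-/-, the lowest such share among the 9 loci. This mean rested in part on 2 CpGs. The 1 measured CpG downstream of the gene, at 4093 bases from the start, was at 90.6% of 53 calls in Dnmt1+/+ and 0% of 22 in Dnmt1-/- (Fisher's exact test, adjusted p = 4.01e-13). A coding CpG 819 bases from the start was at 60.6% of 71 calls and 1.82% of 55 (Fisher's exact test, adjusted p = 3.50e-12), whereas its neighbours, 804 and 860 bases from the start, were at 9.86% and 2.82% in Dnmt1+/+. Without the downstream CpG, over the 24 that remain, the difference was -7.99 ± 2.57 points. At a depth of at least 20 it was -17.5 points, and as a mean of 500 bp tile means, in which a lone CpG weighs as much as a full tile, it was -31.0. Over all CpGs of the locus, the Dnmt1+/+ library had a median depth of 60.5 calls and the Dnmt1-/- library 33, so low levels were less well resolved in Dnmt1-/-.

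In order of Dnmt1+/+ level, Myf5 (84.3% ± 6.43) and Myog (80.4% ± 6.31) came first and did not differ beyond their counting error. Hand1 (36.2% ± 1.64) followed, then Neurog1 (12.9% ± 1.65) and Myod1 (12.7% ± 2.54), which did not differ from each other, then Hand2 (9.46% ± 1.63), Twist1 (9.12% ± 0.967) and Olig2 (8.86% ± 0.935), which again did not, and Neurog2 (3.03% ± 0.927) was lowest. Muscle factors were then set against the other 6 genes. The 3 muscle loci had a Dnmt1+/+ mean of 59.1% and a Dnmt1-/- mean of 27.8%, which differed by -31.3 points, with a range over genes from -57.1 to -6.60. The other 6 loci had means of 13.3% and 10%, which differed by -3.24 points, with a range from -11.3 to +1.78. The groups overlapped, because Myod1 differed by less than Neurog1. The difference between the group means was -28.1 points, and it was -15.2 without Myog and -40.4 without Myod1. Genes are not replicates of a condition, so no test was made over them. By single CpGs, 15 of 56 muscle CpGs (26.8%) were called lower and 0 higher, and 45 of 409 CpGs of the other genes (11%) were called lower and 22 (5.38%) higher. Both shares of lower calls were below the 44.2% found over all loci and intergenic CpGs of the table, and the share of higher calls in the other genes was above 0.635%. The muscle genes had 0 measured CpGs outside CCGG and TCGA in downstream flanks, where 21 of the 22 higher calls lay. The groups therefore cannot be compared in higher calls. When each CpG was thinned to 10 calls in each library, 6 member CpGs were called lower and 5 higher, in place of 60 and 22. The shares over the whole table after thinning are not given here, so it cannot be told whether the members lost more calls than other CpGs. Of the 22 higher calls, 17 were in Hand1, 4 in Twist1 and 1 in Hand2.

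A CpG at a low level can hardly be called lower, so the calls were also counted by the level in Dnmt1+/+. Of the 465 member CpGs, 364 were at 20% or less in Dnmt1+/+, and 11 of these (3.02%) were called lower, beside 2.83% of such CpGs in the table. Another 18 of the 364 (4.95%) were called higher, beside 1.05% in the table. Between the limits, 35 of 81 (43.2%) were called lower, beside 67.4% in the table, and 4 (4.94%) higher, beside 0.931%. The 20 member CpGs at 80% or more averaged 93.4% in Dnmt1+/+ and 57.3% in Dnmt1-/-, and 14 of them (70%) were called lower and 0 higher. Of these CpGs, 11 were in Hand1, 5 in Myf5 at low depth, 3 in Myog and 1 in Neurog1, so the class stands mostly for Hand1. In the table this class averaged 32.0% in Dnmt1-/-, with 88.2% called lower and 0.00106% higher.

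Read by position, the 185 coding CpGs of the 9 genes averaged 13.3% in Dnmt1+/+ and 6.54% in Dnmt1-/-. The 81 in 5′ UTRs were at 9.45% and 4.16%, and the 85 upstream at 16.7% and 10.3%. The 24 in introns were at 31.8% and 18.1% and the 34 in 3′ UTRs at 25.3% and 18.1%. Downstream flanks averaged 18.7% and 36.5% at 56 CpGs, 42 of them in Hand1 and 6 in Twist1. The 1 downstream CpG of Neurog1 (90.6% and 0%) and the 3 of Olig2 (20.1% and 0%) were lower in Dnmt1-/-. Upstream flanks also differed in direction: the means of Myod1 (3 CpGs, 10% and 24.2%), Hand2 (5 CpGs, 3.75% and 6.45%) and Neurog2 (9 CpGs, 1.65% and 3.31%) were higher in Dnmt1-/-, with none of these CpGs called.

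Levels within 1 kb of the gene starts tended to fall with the CpG density of the sequence. Within 1 kb of the start, Myog had 22.0 CpGs per kb, Myf5 24.5, Hand1 33.0, Myod1 45.5 and Olig2 52.5. Neurog1 had 68.5, Hand2 69.5, Neurog2 82.5 and Twist1 92.0. In Dnmt1+/+ the promoters of Myf5 (5 CpGs, 98.6%), Myog (4 CpGs, 88.4%) and Hand1 (13 CpGs, 61.1%) were far above those of Myod1 (31 CpGs, 13.7%), Neurog1 (24 CpGs, 9.62%) and Olig2 (15 CpGs, 8.63%). Hand2 (25 CpGs, 3.02%), Neurog2 (56 CpGs, 2.63%) and Twist1 (61 CpGs, 2.12%) were lowest, and these 3 did not differ beyond their counting error. In Dnmt1-/- the corresponding values were 77.3% for Myf5, 33.2% for Myog, 38.9% for Hand1 and 6.70% for Myod1. The remaining promoters were between 1.03% and 2.55%. The Myf5 and Myog values rest on coding CpGs of the first exon alone. Upstream of both genes and in their 5′ UTRs, 0 CpGs outside CCGG and TCGA were measured. Their values therefore do not describe the sequence before the start, although both enter the correlations below. With CpGs in CCGG and TCGA included, Hand1 was at 65.1% and 51.2%, so that its difference was -13.8 points in place of -22.2. As a description over the 9 promoters, Spearman's rho between density and methylation was -0.97 (Pearson's r -0.87) in Dnmt1+/+ and -0.90 (r -0.77) in Dnmt1-/-. Over 12837 protein-coding promoters with at least 5 measured CpGs outside CCGG and TCGA it was -0.36 (r -0.40) in Dnmt1+/+ and -0.25 (r -0.29) in Dnmt1-/-. Myog, with 4, is not among these. These points share 1 library and their measured CpGs are set by the restriction fragments. The number of measured CpGs differed between the promoters, from 4 in Myog to 61 in Twist1.

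**Figure D4:**
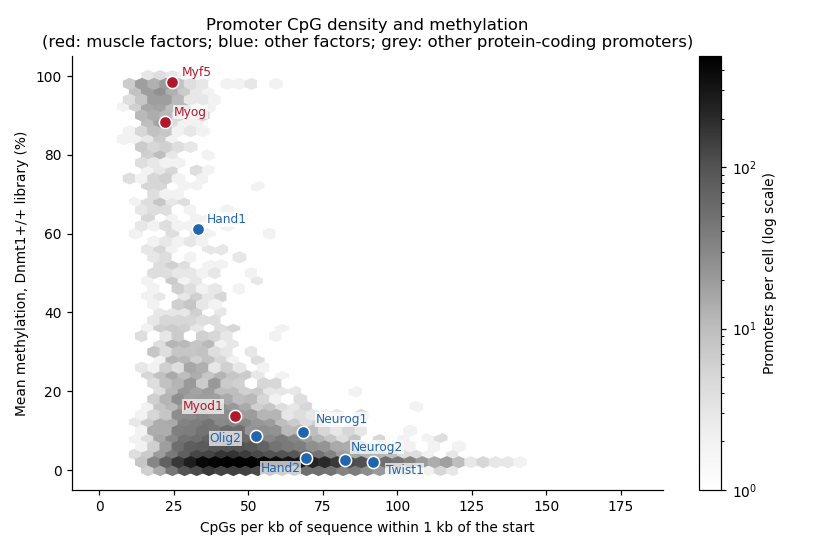
Mean promoter methylation in percent in the Dnmt1+/+ library against CpGs per kb of sequence within 1 kb of the gene start, with the 3 muscle factors in red and the other 6 genes in blue. The 12837 protein-coding promoters, without the members among them, are grey cells on a log scale of counts. Myog and Myf5, whose measured CpGs here are all in coding sequence, sit at the sparse, methylated end and Twist1 at 92.0 CpGs per kb near 0%.

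Set among the 16794 protein-coding loci with at least 5 CpGs outside CCGG and TCGA, the 9 genes were spread out. The median locus was at 32.3% in Dnmt1+/+ and 10.2% in Dnmt1-/-. A lower Dnmt1+/+ mean was found in 88.9% of loci for Myf5, 86.2% for Myog and 54.8% for Hand1, and in 20.1% or fewer for each of the other 6. Of the 9 members, 3 (Myf5, Myog and Neurog1) had a Dnmt1-/- mean at least 10 points below the Dnmt1+/+ mean, and 0 had one as far above it, beside 73% and 0.327% of all loci. Which genes passed this limit depended on the setting: Neurog1 did not with a flank of 1 kb (-7.99 points), whereas Myod1 did with a flank of 5 kb (-10.3) and Olig2 as a mean of tile means (-10.3). Among loci above 20% in Dnmt1+/+ 97% were lower by that much, as were 2 of the 3 members there, Hand1 being the third. A larger fall than that of Myog was seen in 11.5% of loci, and than that of Myf5 in 32.2%. A Dnmt1-/- mean at or above the Dnmt1+/+ mean was found in 1.91% of all loci, and in 0.492% of those above 20% in Dnmt1+/+, a group that includes Hand1 when each CpG is counted once but not with calls pooled or as a mean of tile means, where its difference was -2.04 and -8.78 points. At least 17 CpGs called higher, as in Hand1, were found in 0.625% of loci, and at least 4, as in Twist1, in 2.55%. These shares do not take into account that loci with more measured CpGs can hold more calls, or that neighbouring CpGs can rest on the same molecules.

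**Figure D5:**
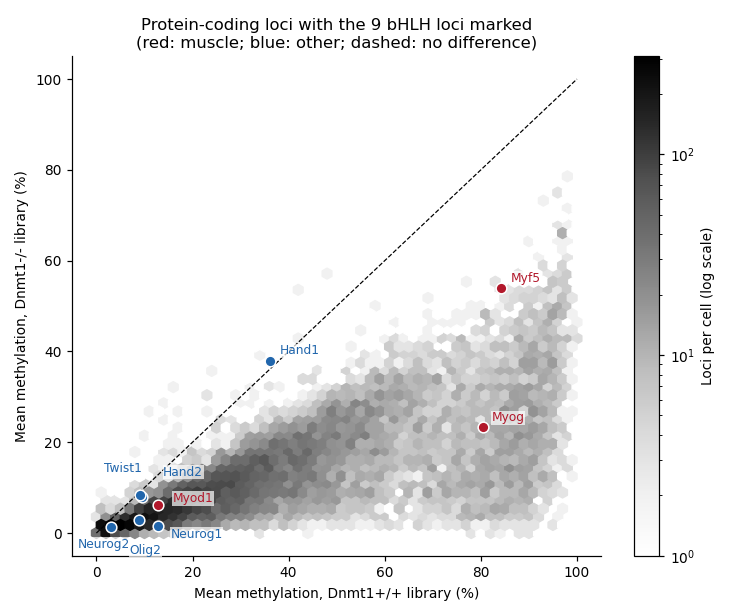
Mean locus methylation in percent in the Dnmt1-/- library against that in the Dnmt1+/+ library for 16794 protein-coding loci. The 3 muscle factors are in red, the other 6 genes in blue and all remaining loci are grey cells on a log scale of counts, with a dashed line where both libraries are equal. Hand1 lies on the line at 36.2% and 38.0%, away from most loci of that level, and Myog well below the line.

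Of 42 other bHLH genes listed with these, 36 had at least 5 CpGs outside CCGG and TCGA. Their median locus was at 11.7% in Dnmt1+/+ and 3.50% in Dnmt1-/-, and 11 were lower by 10 points or more, 25 differed by less and 0 were higher by as much, beside 73% lower and 0.327% higher of all loci. The largest falls were those of Neurod6, a factor of maturing neurons (20 CpGs, 49.4% and 8.33%), Tcf23 (7 CpGs, 86.8% and 52.9%), and Scx, the tendon factor scleraxis (33 CpGs, 39.5% and 11.9%). By role, 4 of 8 muscle and mesoderm genes, 4 of 16 nerve genes, 1 of 2 blood genes and 2 of 10 partners and inhibitors were lower. The muscle gene Myf6, which belongs to the same family as Myod1, Myf5 and Myog, had 0 measured CpGs outside CCGG and TCGA.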

How the data were processed

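Each genotype had 1 library, grouped by the genotype in its label. A sequencing provider made the libraries and processed and mapped the reads; the submitters' processing notes name Bismark and mm9, and versions, settings and conversion rate are not given in the sources used here. Per the study's methods, the deposited depth is a count of reads in which a CpG could be read, the authors left out CpGs under 10 reads in either library, and the deposited percent is the methylated share of those reads. Percent times depth gave whole methylated calls at every CpG.

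CpGs were placed with GENCODE vM1 on the NCBIM37 genome (the same build), with coordinates 1-based. Means count each CpG once. The error of a mean or difference is the 95% binomial counting error carried over its CpGs, and pooled calls have Wilson intervals. Reads copied by PCR carried no molecular identifiers and may stem from 1 molecule, so these intervals, and the limits for 0 calls, hold for counting error alone. Fisher's exact test (two-sided, adjusted by Benjamini and Hochberg's method over the table) compares the 2 libraries, not the genotypes. Some CpGs had much higher depth than a neighbour in both libraries, such as 66 and 118 calls downstream of Hand1 beside 33 and 59. Their calls may not all be independent, in which case their p-values are too small. This was not tested. The test was checked on simulated calls. Low and high CpGs were those at 20% or less and 80% or more.

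The members, the other bHLH genes and the split at CCGG and TCGA were chosen with earlier results of these data known. The rule for naming took all 9 members, in each the 500 bp tile with the largest fall and rise past 25 points, and the 3 other bHLH genes with the largest falls and rises past 10 points. CpGs named singly, and the stretches printed, were chosen after their values were seen. Alternatives were all CpGs, other depths, flanks, windows, tiles and limits, pooled calls, thinning to 10 calls, and leaving out each member. Tools were scipy 1.17.1 and numba 0.67.0 for the tests, pysam 0.24.0 for sequence, pandas 2.3.3 with numpy 2.4.6 for tables and matplotlib 3.10.9 for plots, run under python 3.11.15. Histone marks and expression from the same study were not used here.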

Additional observations from a re-analysis of the deposited data

How the results depend on the processing

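No paired analysis was possible because there was only 1 library of each genotype. The difference between muscle and other factors, -28.1 points, was -22.8 over all CpGs, -23.2 with calls pooled, -40.4 without Myod1 and -15.2 without Myog; the other alternatives moved it less, among them a depth of at least 20 (-28.6), which left no Myf5 CpG and so only 2 muscle genes. The 60 CpGs called lower were 37 at an adjusted p under 0.01, 38 with a difference of at least 25 points and 6 when thinned to 10 calls. The 22 called higher were 5 when thinned. The 2 lower tiles were 0 with at least 10 CpGs and 0 at 50 points, and the 1 higher tile was 0 at 50 points. The 11 other bHLH loci that were lower were 3 at 25 points. Shares over all CpGs, tiles or loci under these changed settings are not given here, so the counts do not show whether the members lost more calls than the rest.

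Small differences of whole loci turned with the weighting. For Hand1 the difference was -2.04 points with calls pooled, -8.78 as a mean of 500 bp tiles and +5.87 at a depth of at least 20. For Twist1 it was -4.30 with calls pooled, +7.19 as a mean of tiles and +1.59 with a flank of 5 kb. The Neurog1 difference was -7.99 with a flank of 1 kb, -17.5 at a depth of at least 20 and -31.0 as a mean of tiles, that of Olig2 was -10.3 as a mean of tiles, that of Neurog2 was -3.52 with a flank of 5 kb, that of Myog was -43.0 over all CpGs, and that of Myod1 was -10.3 with a flank of 5 kb. For promoters, the Hand1 difference was -13.8 over all CpGs and that of Neurog1 -10.9 at a depth of at least 20. The cause was not tested. Depth limits single CpGs most at Myf5, where it was 11 to 16 calls.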
